A study of Mus musculus with 8 samples.

Results

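The 10 genes described here encode chaperones and sensors of the endoplasmic reticulum (ER) that take part in the unfolded protein response: Hspa5, Hsp90b1, Pdia4, Dnajb9, Sdf2l1, Herpud1, Edem1, Xbp1, Ern1 and Atf6. They were taken by symbol from the 27179 Entrez genes counted in every library, and all 10 were found and passed the filter on low counts. The RNA came from thymic epithelial cells (TECs) of C57BL/6 mice, which form the stroma in which developing T cells are selected. The groups were 1 library of Mcl1 knock-out cortical cells (KO cTEC), 4 of wild-type cortical cells (WT cTEC), 1 of Mcl1 knock-out medullary cells (KO mTEC) and 2 of wild-type medullary cells (WT mTEC). Mcl1 encodes an anti-apoptotic protein of the BCL-2 family. The series' text calls the libraries biological replicates. The labels do not state the age of the mice, the deleted part of Mcl1, how or in which cells it was deleted, or whether animals were pooled.

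When unfolded proteins collect in the ER, the chaperone BiP, the product of Hspa5, leaves the membrane sensors. The kinase and endonuclease IRE1 (Ern1) then splices the mRNA of the transcription factor XBP1, while ATF6 is moved to the Golgi, cleaved there and released as a transcription factor. Another sensor, PERK, slows translation and acts through ATF4. Together they raise chaperones, folding enzymes and the machinery that returns misfolded proteins to the cytosol for degradation. In the thymus, medullary cells are known for the expression of many secreted and membrane proteins of other tissues. Reads counted per gene do not separate spliced from unspliced Xbp1 mRNA.

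The response is known to act through short elements in promoters of chaperone genes, so the promoters of 6 members are shown: those of Hspa5, Hsp90b1 and Herpud1, which hold such elements, and those of Dnajb9, Sdf2l1 and Xbp1, on which the results also turn. Each line gives the 250 bases before the gene's annotated start, read 5′ to 3′ on the gene's own strand, from the RefSeq table of build GRCm38.p6, the assembly that mm10 names. Of the 10 members 9 were in the table by gene ID, all but Atf6. Capitals mark exact matches, on either strand, to the ER stress response element, a CCAAT and a CCACG box separated by 9 bases, bound by ATF6 and XBP1 together with the CCAAT-binding factor NF-Y, to the shorter element, ATTGG and CCACG separated by 1 base, to the XBP1-binding core TGACGTGG, to the ATF4 composite site TGATGCAA, and to the single boxes CCACG and CCAAT, which are also parts of the first and, with CCAAT reversed, the second.
Hspa5 promoter, chr2:34771840-34772089, plus strand: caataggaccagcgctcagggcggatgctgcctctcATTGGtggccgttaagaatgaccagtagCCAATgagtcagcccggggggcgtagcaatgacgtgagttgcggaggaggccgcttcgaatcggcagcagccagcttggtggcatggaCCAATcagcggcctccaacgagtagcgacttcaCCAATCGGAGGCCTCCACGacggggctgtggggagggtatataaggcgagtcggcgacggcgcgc
Hsp90b1 promoter, chr10:86705445-86705694, minus strand: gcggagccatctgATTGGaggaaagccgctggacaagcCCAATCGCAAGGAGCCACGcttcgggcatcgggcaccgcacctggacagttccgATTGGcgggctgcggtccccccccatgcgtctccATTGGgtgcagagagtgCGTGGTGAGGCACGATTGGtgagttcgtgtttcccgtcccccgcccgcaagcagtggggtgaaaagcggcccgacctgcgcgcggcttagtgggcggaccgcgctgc
Herpud1 promoter, chr8:94386179-94386428, plus strand: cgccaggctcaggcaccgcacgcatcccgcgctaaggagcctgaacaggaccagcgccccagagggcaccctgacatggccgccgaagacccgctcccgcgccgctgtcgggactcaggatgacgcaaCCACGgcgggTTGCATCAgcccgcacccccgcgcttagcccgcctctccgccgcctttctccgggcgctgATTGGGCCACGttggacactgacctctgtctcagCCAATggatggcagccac
Dnajb9 promoter, chr12:44210069-44210318, minus strand: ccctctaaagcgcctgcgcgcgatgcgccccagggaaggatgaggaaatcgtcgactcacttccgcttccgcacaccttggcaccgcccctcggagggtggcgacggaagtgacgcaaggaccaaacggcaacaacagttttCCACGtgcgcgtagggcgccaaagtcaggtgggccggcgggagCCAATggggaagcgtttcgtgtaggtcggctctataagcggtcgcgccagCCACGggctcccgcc
Sdf2l1 promoter, chr16:17132384-17132633, minus strand: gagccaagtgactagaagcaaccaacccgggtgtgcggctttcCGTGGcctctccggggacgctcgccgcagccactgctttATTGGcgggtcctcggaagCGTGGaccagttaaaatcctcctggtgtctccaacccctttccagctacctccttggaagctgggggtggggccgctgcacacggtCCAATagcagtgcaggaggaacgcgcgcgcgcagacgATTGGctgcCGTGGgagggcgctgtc
Xbp1 promoter, chr11:5520391-5520640, plus strand: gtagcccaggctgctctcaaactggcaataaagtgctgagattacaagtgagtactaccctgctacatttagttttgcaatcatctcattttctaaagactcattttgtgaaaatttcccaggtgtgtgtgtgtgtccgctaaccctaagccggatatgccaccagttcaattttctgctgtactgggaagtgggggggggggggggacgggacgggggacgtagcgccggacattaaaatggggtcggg

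Hspa5 holds 1 full ER stress response element in this window, which begins 65 bases before the start, and Hsp90b1 holds 2, beginning 212 and 107 bases before it, the nearer one on the opposite strand. Such an element lies in 0.113% of the 32851 promoter windows of this length in the table. The shorter element lies in Herpud1, 52 bases before its start, and in 0.0304% of all windows. Herpud1 also matches the ATF4 composite site on the opposite strand, 112 bases before the start, found in 0.791% of all windows. Dnajb9 and Sdf2l1 match only the single boxes: CCACG was found in 7 of the 9 members and 28.3% of all windows, CCAAT in 7 of 9 and 33.8%. None of the motifs searched for is in the Xbp1 window. No member window matched TGACGTGG, which lies in 0.563% of all windows. A match describes the letters only and is no measurement of binding.

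Levels are given as CPM, counts relative to the library's total scaled by TMM, edgeR's correction for library composition, and tests are edgeR quasi-likelihood F tests over the 18163 genes that passed the filter, with Benjamini-Hochberg adjusted p-values and a call under 0.05. Total counts ran from 11516780 to 19171953 per library. Mcl1 itself stood at 8.22 CPM in KO cTEC, against 228 to 302 CPM in WT cTEC (log2 fold change -4.97 ± 0.44, adjusted p = 0.000295). It stood at 78.6 CPM in KO mTEC, against 113 and 203 CPM in WT mTEC, 49.8% of their mean, and that difference did not pass (-1.01 ± 0.36, adjusted p = 0.538). The summed level of 8 cortical markers (such as Psmb11 and Prss16) was 4938 CPM in KO cTEC and 1986 to 3838 CPM in WT cTEC, against 1029 CPM in KO mTEC and 739.9 to 923 CPM in WT mTEC. Most of the medullary sums was Tbata, at 716 CPM in KO mTEC and 514 and 705 CPM in WT mTEC. Psmb11 was at 146 to 399 CPM in WT cTEC and 12.8 and 10.1 CPM in WT mTEC. All 8 had a negative log2 fold change in WT mTEC over WT cTEC. The summed level of 8 mature medullary markers (such as Aire and Fezf2) was 32.5 CPM in KO cTEC, with Aire at 0 counts, and 1273 to 1411 CPM in WT cTEC, against 1891 CPM in KO mTEC and 1833 to 1936 CPM in WT mTEC. The largest part of the WT cTEC sum was Ccl21a, at 656 to 963 CPM there and 506 and 281 CPM in WT mTEC. Aire was at 28.9 to 116 CPM in WT cTEC and 338 and 552 CPM in WT mTEC. Fezf2 was at 86.0 to 120 CPM in WT cTEC and 351 and 421 CPM in WT mTEC. Of the 8, 6 had a positive log2 fold change in WT mTEC over WT cTEC and 2 a negative one. The WT cTEC libraries thus also held medullary transcripts, and fewer cells of a type and less RNA per cell cannot be told apart in bulk libraries. The summed level of 16 immediate-early genes was 6674 CPM in KO cTEC, 3416 CPM in WT cTEC library 1 and 20610 to 29200 CPM in WT cTEC libraries 2 to 4, against 4171 CPM in KO mTEC and 1728 to 2846 CPM in WT mTEC.

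The 10 genes spanned more than 2 orders of magnitude in level per length of exon. In WT mTEC, Hsp90b1 and Hspa5 were highest, with 521 ± 89.1 and 505 ± 87.4 CPM per kb (SD, n = 2), an order within their spread. Herpud1 came next with 161 ± 0.38 CPM per kb, followed by Xbp1 (99.3 ± 9.53), Sdf2l1 (85.5 ± 14.7), Pdia4 (76.1 ± 9.78) and Dnajb9 (58.4 ± 11.1), neighbours within their spread, and then by Edem1 (11.1 ± 0.08), Atf6 (4.08 ± 0.04) and Ern1 (0.87 ± 0.45). Hspa5 and Hsp90b1 were also highest in WT cTEC, with 417 ± 94.0 and 366 ± 53.1 CPM per kb (SD, n = 4). Below them in WT cTEC, Xbp1 (121 ± 19.2 CPM per kb), Pdia4 (99.8 ± 19.9) and Herpud1 (95.1 ± 7.93) lay within their spread of each other. Dnajb9 (39.1 ± 2.78) and Sdf2l1 (37.0 ± 7.79) followed at like levels in WT cTEC, and then Edem1 (14.0 ± 4.68), Atf6 (4.88 ± 0.81) and Ern1 (2.11 ± 0.82). The 2 sensors were thus the least abundant of the 10 per length in both populations. All 10 genes together took 0.355% of the counts in KO cTEC and 0.247 to 0.365% in WT cTEC, against 0.455% in KO mTEC and 0.326 and 0.41% in WT mTEC.

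**Figure D1:**
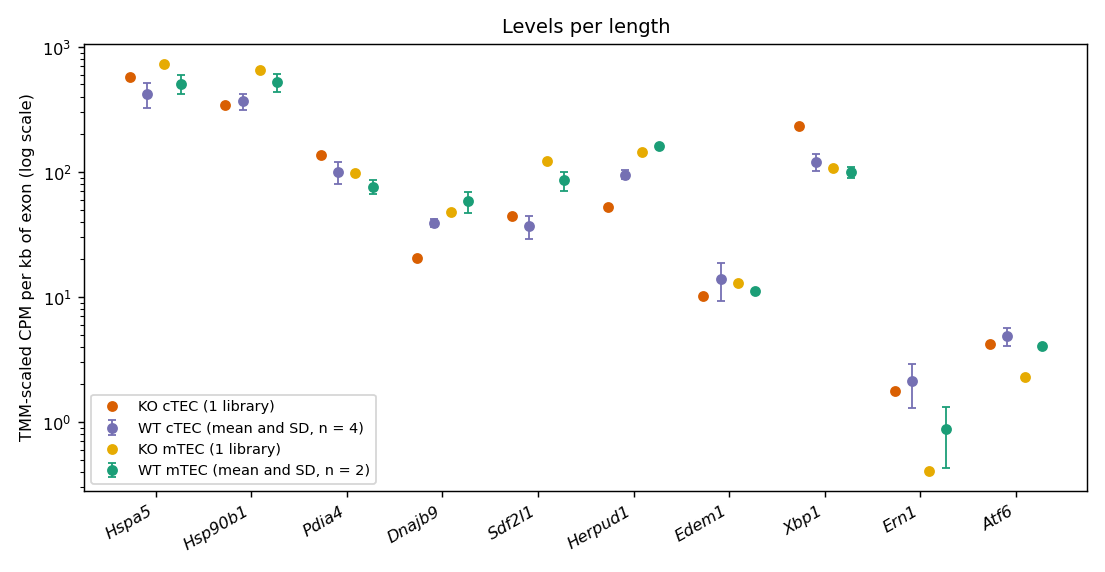
Level of each gene per kilobase of exon (TMM-scaled CPM per kb, log scale) in KO cTEC, WT cTEC, KO mTEC and WT mTEC; points are single KO libraries or WT means with SD (n = 4 and n = 2). Hspa5 and Hsp90b1 lie above 300 CPM per kb in every group, and Ern1 lies lowest, between 0.409 CPM per kb in KO mTEC and 2.11 CPM per kb in WT cTEC.

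Hspa5 (Entrez 14828, chromosome 2, 34772090 to 34776529, mm10 as for all positions below) encodes BiP, the main ER chaperone of the HSP70 family. It had 1513 CPM in KO cTEC, against 1397, 1048, 1117 and 799.5 CPM in WT cTEC libraries 1 to 4. In medullary cells it had 1895 CPM in KO mTEC, against 1160 and 1483 CPM in WT mTEC. Each KO library lay above every WT library of its population, but the WT libraries themselves differed by up to 1.75-fold in cTEC. The log2 fold change was 0.47 ± 0.29 (SE) in cTECs (95% interval -0.20 to 1.14, adjusted p = 0.303) and 0.52 ± 0.33 in mTECs (-0.23 to 1.26, adjusted p = 0.741), so neither passed. Between WT mTEC and WT cTEC it was 0.28 ± 0.23 (-0.25 to 0.81, adjusted p = 0.397), with a sign that turned to -0.12 when WT cTEC 1 was the only WT cTEC library kept.

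Hsp90b1 (Entrez 22027, chromosome 10, 86690841 to 86705444) encodes GRP94, the HSP90 chaperone of the ER, which folds integrins and Toll-like receptors. Its level was 938.6 CPM in KO cTEC, inside the WT cTEC range of 840.3 to 1182 CPM. It was 1812 CPM in KO mTEC, against 1265 and 1612 CPM in WT mTEC. Both WT mTEC libraries lay above all 4 WT cTEC libraries. That difference, a log2 fold change of 0.51 ± 0.19, did not pass (adjusted p = 0.0788), although it did in DESeq2 (0.58, adjusted p = 0.0108), in limma-voom (0.51, adjusted p = 0.048) and without WT cTEC 1 (0.60, adjusted p = 0.0308). The KO effect was -0.11 ± 0.25 in cTECs and 0.33 ± 0.27 in mTECs (adjusted p = 0.798 and 0.811).

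Pdia4 (Entrez 12304, chromosome 6, 47796141 to 47813512) encodes ERp72, a disulfide isomerase. It had 338 CPM in KO cTEC, against 251, 239, 310.3 and 190.5 CPM in WT cTEC libraries 1 to 4. It had 244 CPM in KO mTEC, against 206 and 171.5 CPM in WT mTEC. As for Hspa5, both KO libraries lay above the WT libraries of their population by less than the tests could separate: 0.45 ± 0.26 on the log2 scale in cTECs (-0.14 to 1.04, adjusted p = 0.268) and 0.37 ± 0.29 in mTECs (-0.29 to 1.03, adjusted p = 0.803). Pdia4 in WT mTEC over WT cTEC was -0.39 ± 0.21 (adjusted p = 0.194), the opposite sign to the other 2 chaperones.

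**Figure D2:**
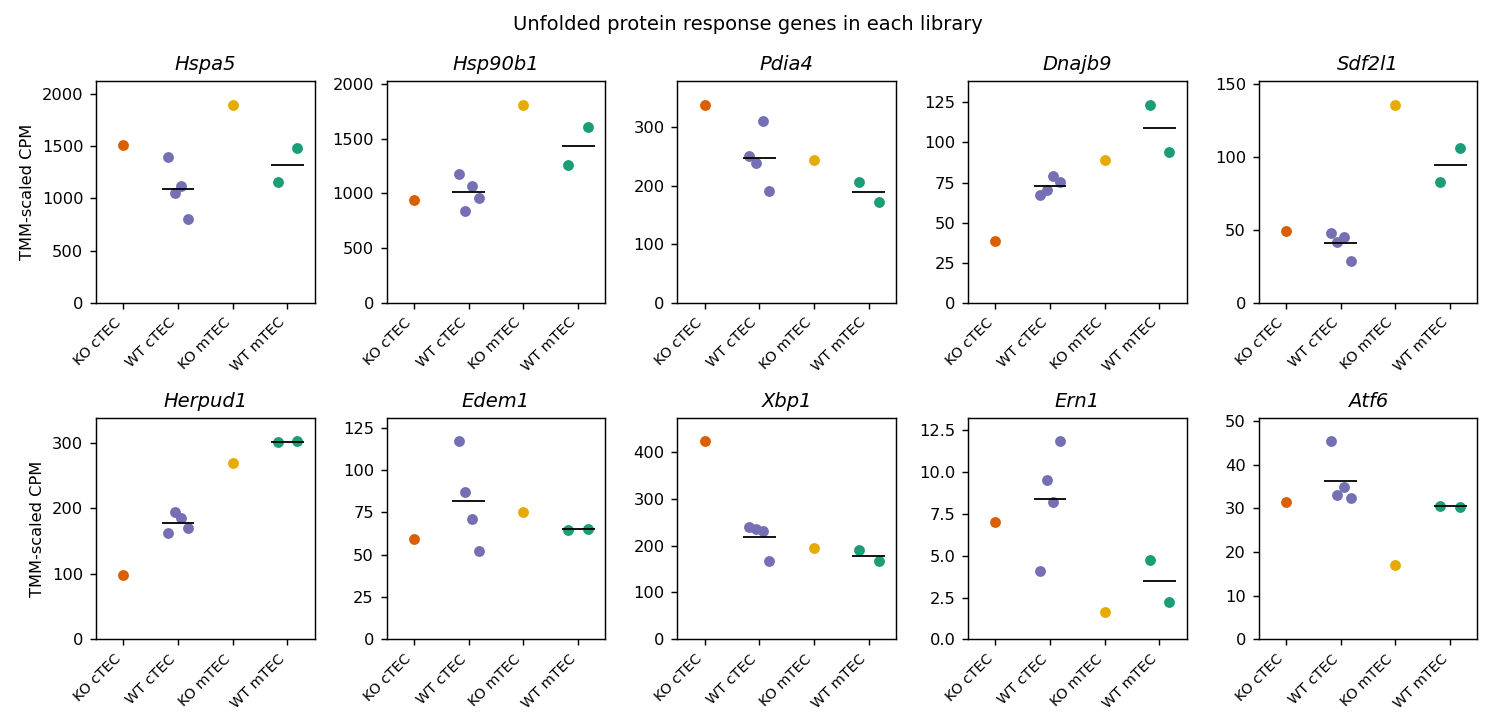
TMM-scaled CPM of the 10 genes in each library, one panel per gene with its own axis from 0, in the order KO cTEC, WT cTEC, KO mTEC, WT mTEC; each point is a library and each line a WT mean. Xbp1 in KO cTEC (422 CPM) stands above every other library, Herpud1 and Dnajb9 in KO cTEC lie below every other library, and Sdf2l1 separates medullary from cortical libraries.

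Dnajb9 (Entrez 27362, chromosome 12, 44205897 to 44210068) encodes ERdj4, a co-chaperone that stimulates BiP and has been reported to recruit it to IRE1. Its level was 38.5 CPM in KO cTEC, against 67.3, 70.2, 79.0 and 75.0 CPM in WT cTEC libraries 1 to 4. In medullary cells it was 89.3 CPM in KO mTEC, against 123.5 and 94.3 CPM in WT mTEC. KO cTEC thus lay far under a tight WT cTEC group, KO mTEC lay just under the WT mTEC libraries, and the WT populations did not overlap. Dnajb9 fell by 0.92 ± 0.23 on the log2 scale in KO cTEC (95% interval -1.45 to -0.39, adjusted p = 0.0281), a call lost without WT cTEC 3 (-0.88, adjusted p = 0.0621). In KO mTEC the change was -0.29 ± 0.24 (-0.83 to 0.26, adjusted p = 0.816). Dnajb9 was higher in WT mTEC than in WT cTEC by 0.58 ± 0.16 (adjusted p = 0.0322), and this call was lost without any one of 5 WT libraries, with adjusted p-values of 0.0681, 0.0599 and 0.053 when WT cTEC 2, 3 and 4 were left out, and 0.284 and 0.0809 when WT mTEC 1 and 2 were left out.

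Sdf2l1 (Entrez 64136, chromosome 16, 17130138 to 17132383) encodes a small ER protein that works with the BiP co-chaperone ERdj3. It was the member with the largest difference between the WT populations. Its level was 83.2 and 106 CPM in WT mTEC, against 48.2, 41.9, 45.2 and 28.6 CPM in WT cTEC libraries 1 to 4. It was 2.31-fold higher in WT mTEC, a log2 fold change of 1.21 ± 0.22 (0.70 to 1.72, adjusted p = 0.00732), and lost its call without WT mTEC 2 (1.03, adjusted p = 0.0912). KO mTEC had 136 CPM, more than either WT mTEC library, and KO cTEC had 49.3 CPM, just over the highest WT cTEC library. Neither KO effect passed: 0.52 ± 0.32 in mTECs (-0.20 to 1.25, adjusted p = 0.73) and 0.27 ± 0.29 in cTECs (-0.40 to 0.94, adjusted p = 0.56), and in cTECs the sign turned to -0.06 with WT cTEC 1 as the only WT cTEC library.

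Herpud1 (Entrez 64209, chromosome 8, 94386429 to 94395371) encodes a membrane protein with a ubiquitin-like domain that helps assemble the ER-associated degradation complex. Its promoter is the one above with both the shorter ER stress element and the ATF4 site. It had 97.8 CPM in KO cTEC, against 162, 194, 186 and 169.8 CPM in WT cTEC libraries 1 to 4. It had 268.9 CPM in KO mTEC, against 300.9 and 301.9 CPM in WT mTEC. The 4 groups did not overlap in Herpud1 level, with KO cTEC lowest and WT mTEC highest. Herpud1 fell by 0.86 ± 0.20 on the log2 scale in KO cTEC (-1.32 to -0.41, adjusted p = 0.0202), a call lost without WT cTEC 3 (-0.84, adjusted p = 0.0512). It was 1.7-fold higher in WT mTEC than in WT cTEC (log2 fold change 0.76 ± 0.14, adjusted p = 0.00761), a call lost when WT mTEC 1 (0.77, adjusted p = 0.0633) or WT mTEC 2 (0.77, adjusted p = 0.0792) was left out. In KO mTEC its change was -0.17 ± 0.21 (-0.64 to 0.31, adjusted p = 0.9).

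Edem1 (Entrez 192193, chromosome 6, 108824045 to 108859356) encodes a lectin-like protein that hands misfolded glycoproteins to degradation. It had 59.4 CPM in KO cTEC, inside the widest relative range of the WT cTEC group outside Ern1: 117, 87.3, 71.1 and 52.0 CPM in libraries 1 to 4. It had 75.3 CPM in KO mTEC, against 64.6 and 65.2 CPM in WT mTEC. No Edem1 test passed with all libraries: -0.46 ± 0.38 in KO cTEC, 0.21 ± 0.40 in KO mTEC and -0.33 ± 0.29 in WT mTEC over WT cTEC (adjusted p = 0.439, 0.951 and 0.423). With WT cTEC 1, its highest library, as the only WT cTEC library, the first and last of these passed (-1.07 and -0.89, adjusted p = 0.00301 and 0.00432), in a fit whose spread comes from the 2 WT mTEC libraries alone and which called 34.1% and 32.3% of all genes in those comparisons.

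Xbp1 (Entrez 22433, chromosome 11, 5520641 to 5525993) encodes the transcription factor downstream of IRE1. It was the 1 member called higher in KO cTEC, with 422 CPM, against 240, 235, 230.0 and 166 CPM in WT cTEC libraries 1 to 4. In medullary cells it had 195 CPM in KO mTEC, against 191 and 167 CPM in WT mTEC. KO cTEC lay above all other libraries, and the medullary libraries lay within the WT cTEC range. The rise in KO cTEC was 1.94-fold, a log2 fold change of 0.95 ± 0.23 (0.44 to 1.47, adjusted p = 0.0226), and it passed in every alternative tried, with adjusted p-values of 0.0144 to 0.0469 when single WT libraries were left out. In KO mTEC the change was 0.12 ± 0.26 (-0.48 to 0.73, adjusted p = 0.957), and WT mTEC over WT cTEC was -0.28 ± 0.19 (adjusted p = 0.291). Xbp1 therefore moved in KO cTEC in the direction opposite to Dnajb9 and Herpud1.

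Neither sensor passed the test with all libraries. Ern1 (Entrez 78943, chromosome 11, 106397620 to 106487796), which encodes IRE1, was the least abundant member, with 109 counts (7.0 CPM) in KO cTEC and 57, 129, 151 and 216 counts (4.06 to 11.8 CPM) in WT cTEC libraries 1 to 4. KO mTEC had 18 counts (1.62 CPM; exact Poisson 95% interval 10.7 to 28.4 counts, counting error only), against 86 and 42 counts (4.72 and 2.21 CPM) in WT mTEC. Its log2 fold change was -1.27 ± 0.55 in WT mTEC over WT cTEC (adjusted p = 0.12; 0.0341 without WT cTEC 1), -0.26 ± 0.68 in KO cTEC and -1.09 ± 0.81 in KO mTEC (-2.95 to 0.77, adjusted p = 0.793). A 4-fold fall in KO mTEC lies inside this last interval, which takes in the spread between the WT libraries. Atf6 (Entrez 226641, chromosome 1, 170704457 to 170868585) had 31.5 CPM in KO cTEC, against 45.3, 33.1, 34.8 and 32.3 CPM in WT cTEC libraries 1 to 4, a log2 fold change of -0.21 ± 0.26 (adjusted p = 0.618). KO mTEC had 17.1 CPM, against 30.7 and 30.3 CPM in WT mTEC. Of the members' changes in KO mTEC it had the smallest unadjusted p. It was -0.84 ± 0.30 (-1.52 to -0.15) with an unadjusted p of 0.0227 and an adjusted p of 0.541, and so did not pass. Between WT mTEC and WT cTEC Atf6 differed by -0.26 ± 0.20 (adjusted p = 0.378), and it was called with WT cTEC 1 as the only WT cTEC library (-0.62, adjusted p = 0.0484), in the fit described for Edem1.

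Of the 10 members 3 were called between the WT populations, Sdf2l1, Herpud1 and Dnajb9, all higher in WT mTEC, beside 27% of all genes called in either direction, 13.2% called higher and 13.9% called lower. Both WT mTEC libraries lay above all WT cTEC libraries for 4 members (30.2% of all genes) and below them for 1, Atf6 (24.7%). The median log2 fold change of the members was 0.01, against 0.06 over all genes, with 5 of each sign. Dendritic cell and macrophage markers moved with this comparison: 4 of the 6 tested of 8 were higher in WT mTEC. Their summed level was 778 to 1046 CPM in WT mTEC and 129 to 235 CPM in WT cTEC. Most of this sum was Lyz2, at 739.6 and 993 CPM in WT mTEC and 121 to 223 CPM in WT cTEC. Plasma cells are known for high activity of these genes. Their 8 markers summed to 138 to 152 CPM in WT mTEC and 138 to 190 CPM in WT cTEC. Of the 7 tested, 5 had a positive log2 fold change and 2 a negative one, with 1 called each way. Sdc1 was at 45.7 and 47.6 CPM in WT mTEC and 93.5 to 123 CPM in WT cTEC. Tnfrsf17 was at 15.3 and 18.6 CPM in WT mTEC and 0 to 4.49 CPM in WT cTEC. Mzb1 reached at most 1.54 CPM in any library. The 5 B cell markers summed to 44.0 to 53.4 CPM in WT mTEC and 10.6 to 27.9 CPM in WT cTEC. Of these, 4 were tested, all with a positive log2 fold change and 1 called. Of 16 immediate-early genes 12 were lower in WT mTEC. The part of these lists in the 3 calls was not tested.

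In KO cTEC 3 members were called, Xbp1 higher and Dnajb9 and Herpud1 lower, beside 17.5% of all genes in either direction, 5.1% higher and 12.4% lower. The KO library lay above all WT cTEC libraries for 4 members (29% of all genes) and below them for 3 (32.9%). The members' median was -0.16 and that of all genes -0.14. Dnajb9 and Herpud1, the members called lower in KO cTEC, were both also called higher in WT mTEC than in WT cTEC, and these comparisons share the WT cTEC libraries. Beside them, 8 of 8 mature medullary markers and 8 of 8 tuft cell markers were lower in KO cTEC, the tuft list summing to 38.7 CPM there, with 4 genes at 0 counts, and to 948.9 to 1617 CPM in WT cTEC. Dendritic cell and macrophage markers summed to 11.0 CPM in KO cTEC and 129 to 235 CPM in WT cTEC. Most of this was again Lyz2, at 9.25 CPM in KO cTEC and 121 to 223 CPM in WT cTEC. The part of these markers in the fall of Dnajb9 and Herpud1 was not tested.

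**Figure D3:**
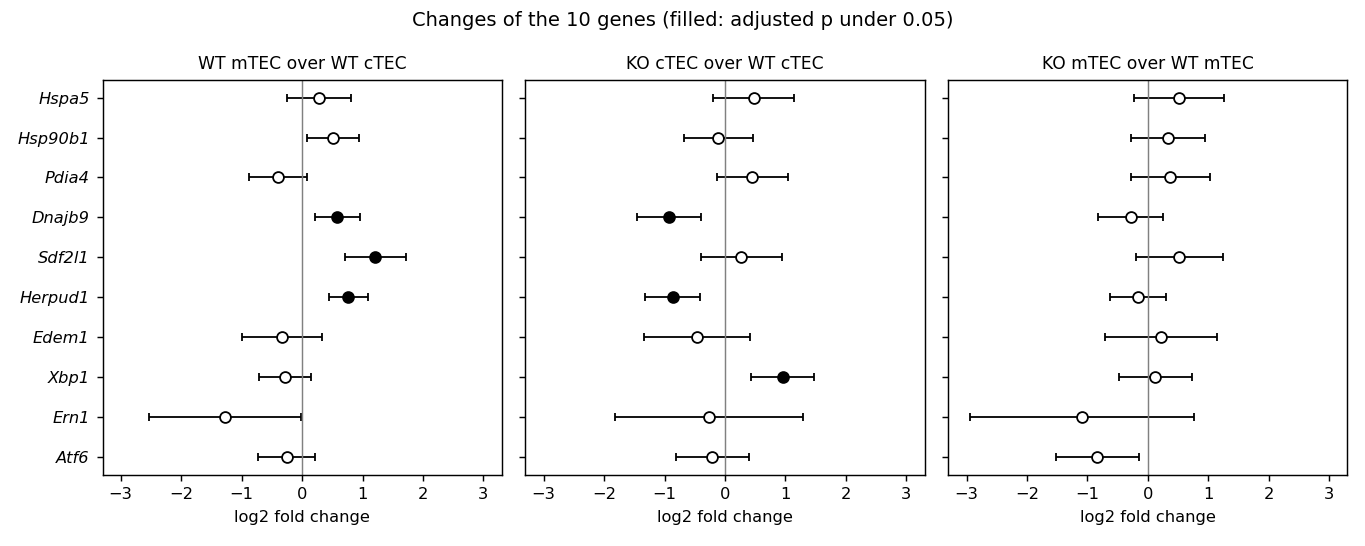
Log2 fold change of each gene with its 95% interval for WT mTEC over WT cTEC, KO cTEC over WT cTEC and KO mTEC over WT mTEC; filled points have an adjusted p under 0.05. Sdf2l1, Herpud1 and Dnajb9 are filled at the left, Xbp1 (0.95), Herpud1 (-0.86) and Dnajb9 (-0.92) in the middle, and no gene at the right.

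In KO mTEC 0 members were called by edgeR, as were 0% of all 18163 genes. At an unadjusted p under 0.05 there were 1 member, Atf6, and 1502 genes. DESeq2 called 139 genes and limma-voom 0, with 0 members in either. The KO mTEC library lay above both WT mTEC libraries for 6 members (38.7% of all genes) and below both for 4 (41.7%). Fibroblast markers summed to 1133 CPM in KO mTEC and 150.5 to 182 CPM in WT mTEC, and their part in these values was not tested. The test of whether the KO effect differed between the populations called 0 members in edgeR, DESeq2 and limma-voom, beside 6.81% of all genes in edgeR (6.16% higher and 0.644% lower), and 2 members had an unadjusted p under 0.05. These were Herpud1, with a difference of 0.70 ± 0.28 on the log2 scale (adjusted p = 0.21), and Xbp1, with -0.83 ± 0.36 (adjusted p = 0.251). The changes of Xbp1, Dnajb9 and Herpud1 in KO cTEC were therefore not shown to differ from those in KO mTEC.

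The KO comparisons of cTECs and of mTECs use separate libraries, but the labels do not say whether the KO cTEC and KO mTEC libraries came from the same mice. In both populations the KO library lay above all WT libraries of its own population for Hspa5, Pdia4, Sdf2l1 and Xbp1. These were 4 members, beside 16.9% of all genes. In both, the KO library lay below all WT libraries of its own population for Dnajb9, Herpud1 and Atf6, 3 members beside 17.6% of all genes. The log2 fold changes had the same sign in both populations for 8 of 10 members, beside 62.1% of all genes, the exceptions being Hsp90b1 and Edem1. Within the WT cTEC group, library 1 was the highest of the 4 for 6 members and the lowest for 3 (Dnajb9, Herpud1 and Ern1), and library 4 was the lowest for 6.

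Other genes of the ER were counted from lists that hold none of the 10 members. For the counts between the WT populations, the shares over all genes were 13.2% called higher in WT mTEC and 13.9% lower. Between the WT populations, 5 of 24 chaperones and folding enzymes were higher in WT mTEC and 2 lower. Manf, an ER stress-induced secreted protein, had a mean of 218 ± 19.2 CPM in WT mTEC and 79.5 ± 12.4 CPM in WT cTEC (log2 fold change 1.45 ± 0.17, adjusted p = 0.00175), and Creld2, which has been linked to ER stress in the same way, had 304 ± 35.9 and 120 ± 18.2 CPM (1.35 ± 0.17, adjusted p = 0.00222; SD, n = 2 and n = 4). Sil1, the nucleotide exchange factor of BiP, was lower (-1.16 ± 0.22), as was the thioredoxin-like Txndc5 (-0.90 ± 0.26). Of 17 degradation genes 4 were higher and 4 lower in WT mTEC, the largest changes at an average log2 CPM of 3 or more being Erlec1 (0.90 ± 0.21) and Derl2 (0.63 ± 0.19) upwards and the lectin Os9 (-0.98 ± 0.31) and Herpud2, a relative of Herpud1 (-0.89 ± 0.16), downwards. Of 17 translocation and secretion genes 5 were higher, among them Sec61b (0.98 ± 0.24) and Sec11c (0.79 ± 0.17), and 3 lower, among them the coat proteins of ER-derived vesicles Sec24d (-1.19 ± 0.30) and Sec31a (-0.74 ± 0.14). Of 13 other sensors and regulators 3 were lower in WT mTEC, among them Creb3l2 (-1.47 ± 0.22), a membrane-bound transcription factor, and Mbtps1 (-0.98 ± 0.23), the protease that first cleaves ATF6. The medians of these 4 lists were 0.23, -0.16, -0.08 and -0.46, against 0.06 over all genes. Many of these calls rest on few libraries: of those named, only Manf, Creld2 and Creb3l2 were called whichever single WT library was left out.

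In KO cTEC the largest change among the chaperone, degradation and translocation genes was that of Ero1b, an oxidase that recharges the disulfide isomerases. It had 13.6 CPM in KO cTEC, against 165, 136, 135 and 193 CPM in WT cTEC libraries 1 to 4, while KO mTEC had 233.5 CPM, against 286.5 and 288 CPM in WT mTEC. It fell by 3.53 ± 0.31 on the log2 scale in KO cTEC (adjusted p = 0.000275), and its KO effect differed between the populations by 3.23 ± 0.37 (adjusted p = 0.00177). Like Dnajb9 and Herpud1 it was higher in WT mTEC than in WT cTEC (0.87 ± 0.18). Sec11c, a catalytic subunit of the signal peptidase, was also lowest in KO cTEC: 55.7 CPM in KO cTEC and 118 ± 18.6 CPM in WT cTEC (-1.09 ± 0.25, adjusted p = 0.02), against 225.8 CPM in KO mTEC and 204 ± 11.9 CPM in WT mTEC. Selenos, a selenoprotein of the degradation complex, was higher in KO cTEC, with 81.0 CPM, against 44.3 ± 0.56 CPM in WT cTEC (0.87 ± 0.17, adjusted p = 0.0101). The disulfide isomerase P4hb (0.89 ± 0.26), the cyclophilin Ppib (0.69 ± 0.20) and the translocon-associated Ssr2 (0.62 ± 0.17) were higher by calls near the threshold (adjusted p = 0.0458, 0.0489 and 0.0413) that were lost in 8 to 10 of the alternatives tried. In all, 2 of 24 chaperones were higher and 1 lower, 1 of 17 degradation genes was higher, and 1 of 17 translocation genes was higher and 1 lower. Beside these counts, 5.1% of all genes were called higher in KO cTEC and 12.4% lower. The medians of these lists were 0.16, 0.17 and 0.42, against -0.14 over all genes.

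The lists for the other branches of the response were short. Over all genes, 13.2% were called higher and 13.9% lower in WT mTEC than in WT cTEC. In KO cTEC 5.1% were called higher and 12.4% lower. Of 8 genes of the PERK branch, 1 was lower in WT mTEC, Atf3 (-3.64 ± 0.90, adjusted p = 0.0219), and 1 was higher in KO cTEC, Sesn2, with 62.5 CPM, against 33.1 ± 5.08 CPM in WT cTEC (0.92 ± 0.24, adjusted p = 0.0316). Atf3 is also an immediate-early gene: it had 162 CPM in WT cTEC 1 and 1097 to 1501 CPM in WT cTEC libraries 2 to 4, and its call was lost with library 1 as the only WT cTEC library (-1.07, adjusted p = 0.443) and without WT mTEC 1 or 2 (adjusted p = 0.0763 and 0.163). Sesn2 lost its call when WT cTEC 3 (adjusted p = 0.0626), WT mTEC 1 (0.0643) or WT mTEC 2 (0.064) was left out. Atf4 itself had 95.8 CPM in KO cTEC and 109 ± 25.6 CPM in WT cTEC, and Ddit3, which encodes CHOP, had 38.5 CPM in KO cTEC and 48.3 ± 7.53 CPM in WT cTEC (adjusted p = 0.702 and 0.445). Of 6 transcripts described in cultured cells as cut by IRE1, 3 were lower in WT mTEC, Col6a1 (-2.06 ± 0.23), Hgsnat (-1.77 ± 0.23) and Sparc (-1.75 ± 0.27), and 1, Col6a1, in KO cTEC (-1.83 ± 0.30, adjusted p = 0.00487), while Bloc1s1, the most widely used of them, had 68.1 CPM in KO cTEC and 57.5 ± 16.5 CPM in WT cTEC (adjusted p = 0.626). Of 8 fibroblast markers 2 were called lower in WT mTEC, with a summed level of 150.5 to 182 CPM there and 716 to 924 CPM in WT cTEC. Most of this sum was Dcn, at 129 and 98.9 CPM in WT mTEC and 557 to 812 CPM in WT cTEC. Of the 8, 5 had a negative log2 fold change and 3 a positive one. Pdgfrb was among the latter, at 12.7 and 18.4 CPM in WT mTEC and 2.19 to 8.77 CPM in WT cTEC. It is also 1 of the 6 transcripts described as cut by IRE1. Of those 6, 4 had a negative log2 fold change in WT mTEC over WT cTEC and 2 a positive one. Col6a1 and Sparc are also expressed by fibroblasts, and the part of these markers in the 3 calls was not tested. Among the other sensors Creb3l3 alone was called in KO cTEC, at 0 counts there and 2.38 ± 1.79 CPM in WT cTEC (adjusted p = 0.0203). Sparc and Creb3l3 were named after their values were seen.

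**Figure D4:**
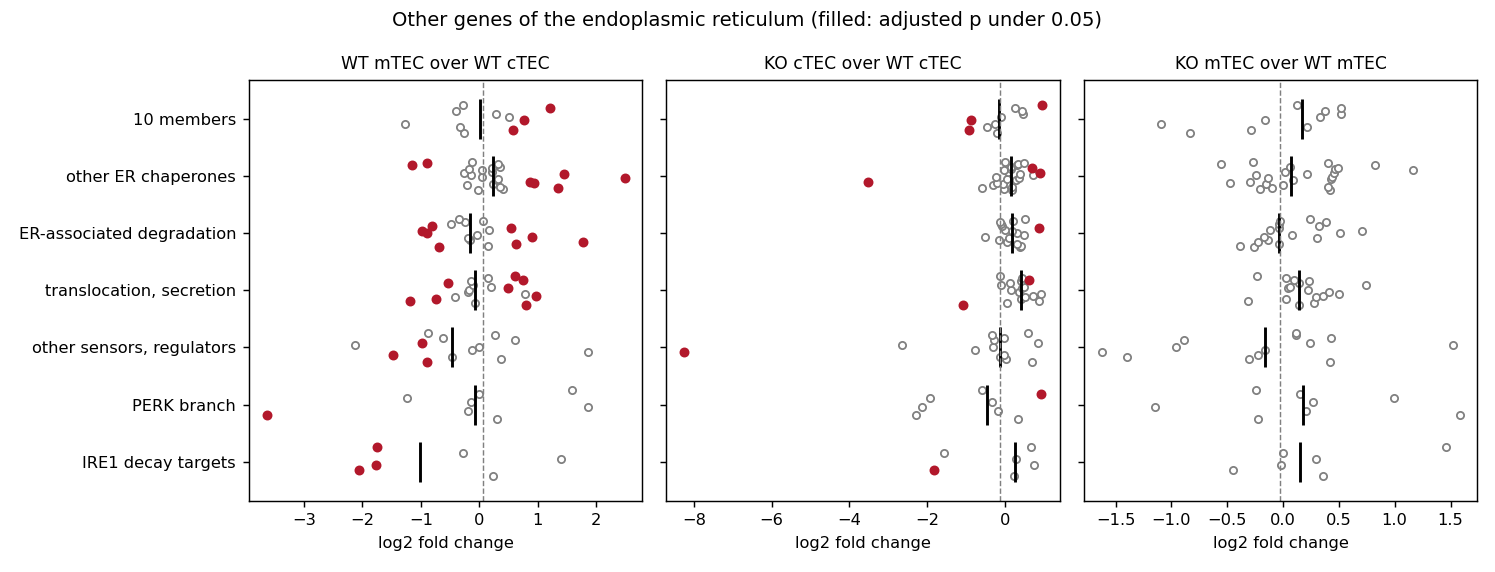
Log2 fold changes of the 10 members and of 6 further lists of ER genes in WT mTEC over WT cTEC, KO cTEC over WT cTEC and KO mTEC over WT mTEC, each panel with its own axis; filled points have an adjusted p under 0.05, black bars are list medians and the dashed line is the median of all genes. Calls fall on both sides in the left panel, are few in the middle one, where Ero1b stands at -3.53, and are absent at the right. In the middle panel Creb3l3 stands at -8.25, with 0 counts in KO cTEC, so the size of its change is not measured.

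The genes whose pattern over the 8 libraries was nearest to that of Hspa5 were not chaperones. After each gene was centred on its own mean, Eif3l, a subunit of a translation initiation factor, differed from Hspa5 by a root mean square of 0.08 on the log2 scale, followed by Mrps23 (0.10), Mrps9 (0.12), Mdh2 (0.13) and Mrpl19 (0.13), out of 6532 genes with an average log2 CPM of at least 5. Mrps23, Mrps9 and Mrpl19 encode proteins of the mitochondrial ribosome, and Mdh2 a mitochondrial malate dehydrogenase. Among the members Hsp90b1 was nearest, at rank 453 (0.28), while Herpud1 and Dnajb9 stood at ranks 3837 and 3987 (0.59 and 0.61).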

How the data were processed

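Polyadenylated RNA of frozen cell pellets was turned into cDNA with SMART-Seq, tagmented and sequenced from both ends, per the labels. The authors made gene counts with featureCounts on mm10, per the submitters' processing notes, and deposited them without normalization. Not given in the sources used here were tool versions, the aligner, the annotation and any strand setting. The series-wide table was not used, because its 8 columns match no sample label. Symbols and positions came from RefSeq GRCm38.p6, in which 25275 genes (93%) were found.

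Genes were kept if 2 or more libraries reached a CPM of 1. The counts were scaled by TMM and fitted with 1 mean per group in edgeR 4.0.16 (R 4.3.3, robust quasi-likelihood, 4 residual degrees of freedom); limma 3.58.1 and DESeq2 1.42.0 were alternatives. All tests were two-sided. The SE is the absolute log2 fold change divided by the square root of F, and 95% intervals use the moderated degrees of freedom. Each KO group is a single library, assumed to vary like the WT libraries. The fit was also run on simulated counts with the same spread for every gene and library, which does not test that assumption. The members and the gene lists were chosen with earlier results of these data known. From each further list up to 2 called genes per direction and comparison were named, with an average log2 CPM of 3 or more, and, for Hspa5, the 5 nearest genes. Intervals on counts cover counting error only, since reads carry no molecular identifiers.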

Additional observations from a re-analysis of the deposited data

Results flagged for a closer look

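Xbp1 in WT cTEC library 4, at 166 CPM, lay far below the other WT cTEC libraries (230.0 to 240 CPM): its gap to the nearest of them was 0.87 of the whole range, past the critical value of 0.829 for 4 samples. This was the only one of the 10 genes so marked, and chance marks about 1 in 20 groups. Without that library the rise of Xbp1 in KO cTEC was 0.86 on the log2 scale and was still called.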

How the results depend on the processing

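The number of members called between WT mTEC and WT cTEC was 3, and it ran from 0 to 5 when single WT libraries were left out (0 without WT mTEC 2, 1 without WT mTEC 1, 5 without WT cTEC 1, where 3.42%, 6.50% and 37.4% of all genes were called, against 27%). It was 5 with WT cTEC 1 as the only WT cTEC library (32.3% of all genes), 4 in DESeq2 (31.1%) and 4 in limma-voom (35.6%). In KO cTEC the number was 3, and 1 to 3 when single libraries were left out, the lowest without WT cTEC 3 (14.1% of all genes, against 17.5%). The test of the difference between the KO effects called 0 members, and 1 (Edem1, 1.29, adjusted p = 0.00709) with WT cTEC 1 as the only WT cTEC library (23.1% of all genes, against 6.81%).

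WT libraries 1 and 2 share numbers across the populations, but the numbers were not taken as pairs. Their deviations from the group means correlated at -0.15 and -0.02. The deviations of the 2 WT mTEC libraries mirror each other, so these correlations cannot exclude pairing. With the replicate number as a block, in 4 WT libraries, 1 member was called (Sdf2l1), beside 12.0% of all genes. No paired analysis was possible because each KO group is a single library without a number for the KO comparisons.

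Of 896 alternative values for 70 single-gene results, 783 kept their direction and side of the threshold, 94 lost a call, 11 gained one and 8 turned round. Only results called with all libraries could lose a call, and many of the 70 were not called. The further ER genes among them were chosen because they were called. The pooled figure of 783 is therefore no measure of how stable the calls were. With WT cTEC 1 as the only WT cTEC library the turned values were -0.124 for Hspa5 in WT mTEC over WT cTEC, -0.058 for Sdf2l1 and 0.692 for Ern1 in KO cTEC, and 0.038 for the difference of KO effects of Pdia4. Leaving out single libraries, that difference ran from -0.206 to 0.054 for Pdia4, above 0 without WT cTEC 4 (0.025) or WT mTEC 1, and from -0.125 to 0.234 for Hspa5, below 0 without WT cTEC 1 (-0.096) or WT mTEC 1. None of these 8 values passed the test, and the cause of the changes was not tested. Each KO group is 1 library, and the interval given for a gene bounds the changes its data leave possible.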
